A study of Mus musculus with 12 samples.

Results

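The 8 genes described here are 6 receptor tyrosine kinases outside the EGF receptor family, *Met*, *Igf1r*, *Insr*, *Fgfr1*, *Pdgfra* and *Pdgfrb*, and 2 ligands, *Hgf* and *Fgf2*. They were picked by name from the 30705 gene names measured in murine melanoma cells. The rule uses no measured value, but it was written with earlier results of these data known. The 6 receptors had a mean of at least 1 RPKM (read counts normalized for transcript length and library size) over the 12 samples and were among the 11282 genes tested. Both ligands were below that limit and were not part of the test across genes.

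RNA was sequenced from cultured BrafV600E melanoma cells in 4 groups of 3 samples. The cells came from a C57BL/6 mouse that carried Braf+/LSL-V600E, Tyr::CreERT2+/o, in which the Tyr promoter drives an inducible Cre recombinase, and p16INK4a-/-, and all groups share this background. The groups are a scramble control line and 3 CRISPR/Cas9 knockout lines. PTGS1-KO targets the gene of COX-1, PTGS2-KO that of COX-2 and PTGES-KO that of mPGES-1, enzymes on the route to prostaglandin E2. Knockout cells were selected with puromycin and subcloned by limiting dilution. The study describes the 3 samples of a line as subclones in a legend and as independent samples in its text, and the labels do not say that cultures were separate, so p-values here measure only the spread between these samples. No treatment with a ligand or inhibitor, and no host, is described for the RNA samples. The study grew its cell lines in medium with heat-inactivated fetal bovine serum, in which growth factors were not measured. The protein or phosphorylation of a receptor was not measured.

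The target genes followed the labels, with *Ptgs1* at 10.6% of its scramble mean in PTGS1-KO cells, *Ptgs2* at 10.5% in PTGS2-KO cells and *Ptges* at 47.9% in PTGES-KO cells. In PTGS1-KO cells *Ptges* was also at 70.2% and *Ptgs2* at 78.5% of the scramble mean. The estimated depth was 13.3 to 16.8 M reads per sample. PTGS1-KO replicate 3 stood apart in that a single transcript, AK155692, held 8.24% of its summed values, against 2.84% to 4.28% for the top gene of the other samples. Of 7 melanocyte lineage markers, *Mitf* alone reached a mean of 1 RPKM in any group (group means 1.75 to 2.68), and *Sox10*, *Mlana*, *Tyrp1* and *Dct* were listed at 0 in all 12 samples. The cells are called melanoma cells here as the labels do.

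Receptor tyrosine kinases span the cell membrane, bind a growth factor outside the cell and signal as pairs, in which the kinase domains phosphorylate each other. They recruit adaptors that pass the signal to the RAS-MAPK and PI3K-AKT pathways. MET binds hepatocyte growth factor (HGF), which is usually secreted by stromal cells as an inactive chain and cut by proteases such as urokinase. IGF1R and INSR are close relatives that bind insulin-like growth factors and insulin, FGFR1 binds fibroblast growth factors such as FGF2 with heparan sulfate as co-receptor, and PDGFRA and PDGFRB bind dimers of platelet-derived growth factor chains. In melanoma these receptors are known for their part in growth, invasion and resistance to inhibitors of mutant BRAF.

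On GRCm38, with GENCODE M21 gene bounds, *Met* lies on chromosome 6 from 17463800 to 17573980, *Igf1r* on chromosome 7 from 67952827 to 68233668 and *Insr* on chromosome 8 from 3122061 to 3279617 on the minus strand. *Fgfr1* lies on chromosome 8 from 25513654 to 25575718 and *Pdgfra* on chromosome 5 from 75152292 to 75198215. The ligand genes are *Hgf* on chromosome 5 from 16553495 to 16620152 and *Fgf2* on chromosome 3 from 37348346 to 37410108. All of these but *Insr* lie on the plus strand. The table gives 1 value per gene name, so isoforms and exons were not told apart.

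Start-site sequences are shown for *Met* and *Igf1r*, the receptors with the highest levels and a nearly shared course over the samples, and for *Pdgfra*, which lay lower and moved by other amounts. Each is 300 bases of the plus strand of GRCm38.p6 from RefSeq, with 250 bases before the start site and the rest from the start onward, and capitals mark the GC box GGGCGG. The *Igf1r* window ends at 67952306, before the GENCODE M21 gene bound of 67952827, so the start site differs between these sources. Motif positions are counted from the start site of each window.
Met, chr6:17463707-17464006: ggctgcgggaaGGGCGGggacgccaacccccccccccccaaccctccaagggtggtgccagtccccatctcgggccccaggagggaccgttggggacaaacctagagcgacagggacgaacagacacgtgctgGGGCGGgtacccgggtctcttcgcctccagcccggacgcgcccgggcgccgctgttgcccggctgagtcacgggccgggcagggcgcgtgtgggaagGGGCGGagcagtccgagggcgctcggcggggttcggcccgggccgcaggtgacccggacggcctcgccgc
Igf1r, chr7:67952007-67952306: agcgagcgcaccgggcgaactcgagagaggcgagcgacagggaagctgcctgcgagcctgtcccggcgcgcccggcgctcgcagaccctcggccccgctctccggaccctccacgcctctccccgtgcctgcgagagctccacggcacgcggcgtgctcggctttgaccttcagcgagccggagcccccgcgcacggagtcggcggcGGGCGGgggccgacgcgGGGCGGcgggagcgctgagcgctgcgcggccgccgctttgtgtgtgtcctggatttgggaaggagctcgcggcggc
Pdgfra, chr5:75152001-75152300: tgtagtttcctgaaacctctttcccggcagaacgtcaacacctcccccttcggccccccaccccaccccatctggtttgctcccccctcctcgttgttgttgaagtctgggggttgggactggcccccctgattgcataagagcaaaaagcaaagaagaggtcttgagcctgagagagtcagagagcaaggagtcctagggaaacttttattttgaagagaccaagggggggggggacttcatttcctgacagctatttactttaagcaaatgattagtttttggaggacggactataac

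Both strands were searched for the GC box (GGGCGG), the cAMP response element (TGACGTCA), the AP-1 site (TGANTCA) and the E-box (CACGTG), and no matches of different motifs overlapped in these windows. Counted backward from the start site, with -1 for the base just before it, *Met* held the GC box at -239, -117 and -20, an E-box at -126 and an AP-1 site at -54. *Igf1r* held the GC box at -43 and -26, and *Pdgfra* held none of the 4 motifs. The GC box was present in 35.7% of the 32851 windows in the table, the AP-1 site in 7.8%, the E-box in 7.2% and the cAMP response element in 1.8%. GC content was 75.7% in *Met*, 76.0% in *Igf1r* and 51.0% in *Pdgfra*, against a median of 52.7% over all windows. These matches describe the letters of the windows, and the binding of a factor was not measured.

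**Figure D1:**
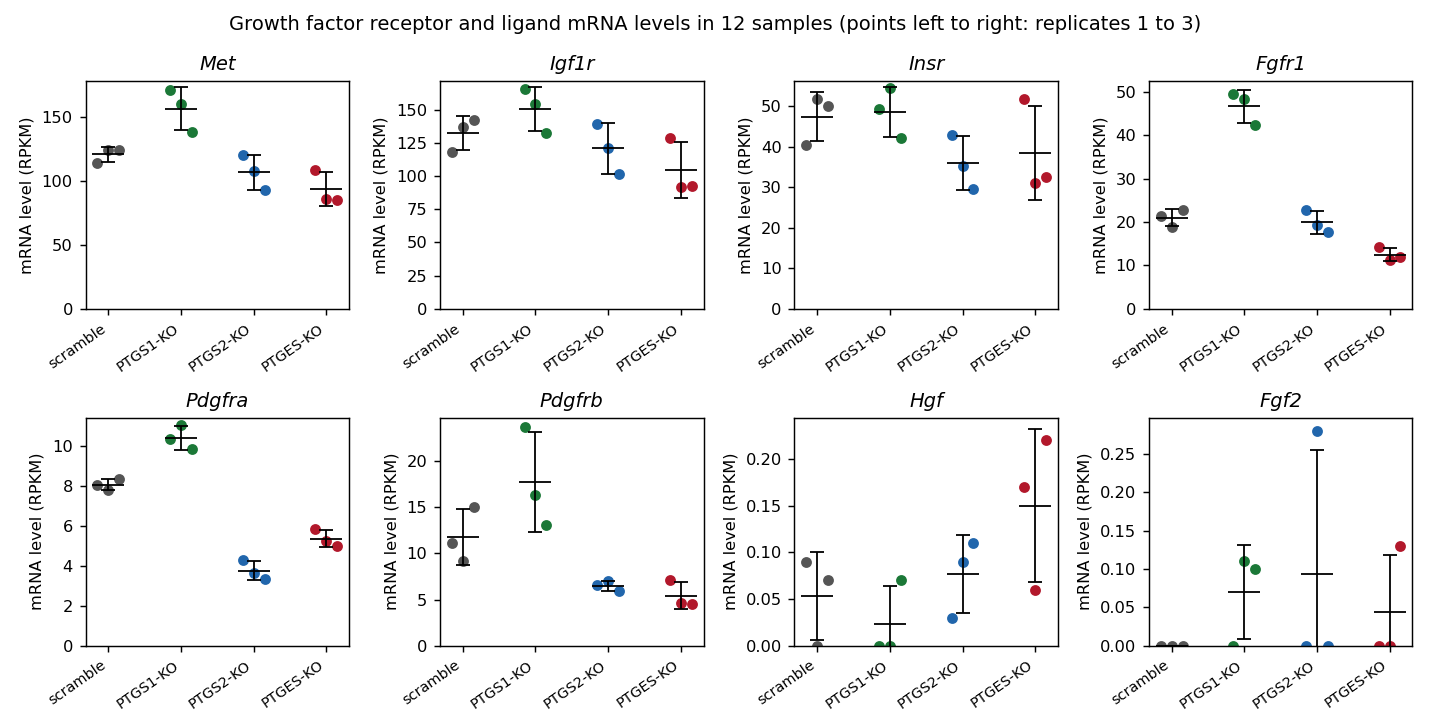
mRNA levels (RPKM, linear axis from 0, scale differs between panels) of the 6 receptors and 2 ligands in the 12 samples, with points for replicates 1 to 3 and the mean ± SD of each group. *Fgfr1* in PTGS1-KO cells (42.32 to 49.48 RPKM) and *Pdgfra* in PTGS2-KO cells (3.36 to 4.3 RPKM) lay clear of the scramble samples, and *Hgf* and *Fgf2* did not exceed 0.22 and 0.28 RPKM.

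The receptors were present at very different levels. Averaged over the 12 samples, *Igf1r* stood at 127 RPKM and *Met* at 119 RPKM, above 90.9% and 90.1% of the genes tested. *Insr* followed at 42.6 RPKM and *Fgfr1* at 25 RPKM. *Pdgfrb* at 10.4 RPKM and *Pdgfra* at 6.91 RPKM lay above 30.4% and 22.1% of the genes tested. The 6 receptors differed also in how far they moved between lines, with the highest and lowest group means apart by 1.35 times for *Insr*, 1.44 times for *Igf1r*, 1.68 times for *Met*, 2.77 times for *Pdgfra*, 3.28 times for *Pdgfrb* and 3.74 times for *Fgfr1*. Over the 4 groups, 5 of the 6 receptors passed limma's F test at an adjusted p under 0.05, where 38.6% of all genes tested did. The adjusted p was 4.9e-07 for *Fgfr1*, 3.1e-06 for *Pdgfra*, 0.00033 for *Pdgfrb*, 0.0015 for *Met* and 0.044 for *Igf1r*. *Insr* did not pass (limma adjusted p = 0.13). The exact permutation test of *Igf1r* alone over the 4 groups gave p = 0.063.

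*Fgfr1*, the receptor for FGF2 and related factors, was the member with the widest range. Its level was 21.38, 18.97 and 22.75 RPKM in scramble cells, 49.48, 48.26 and 42.32 RPKM in PTGS1-KO cells, 22.80, 19.31 and 17.69 RPKM in PTGS2-KO cells, and 14.20, 11.32 and 11.88 RPKM in PTGES-KO cells. All PTGS1-KO samples were above, and all PTGES-KO samples below, every sample of the other groups, while scramble and PTGS2-KO samples overlapped. Relative to scramble cells the mean rose 2.22 times in PTGS1-KO cells, from 21 ± 1.91 to 46.7 ± 3.83 RPKM (SD, n = 3), a log2 fold change of 1.11 (95% interval 0.87 to 1.36, limma adjusted p = 3e-05). In PTGES-KO cells it fell to 12.5 ± 1.53 RPKM (SD, n = 3), 59.3% of scramble, with a log2 fold change of -0.71 (95% interval -0.96 to -0.47, limma adjusted p = 0.000709). In PTGS2-KO cells the log2 fold change was -0.08 (95% interval -0.33 to 0.17, limma adjusted p = 0.706), so the neighbours scramble and PTGS2-KO in this order did not differ beyond their spread.

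*Pdgfra*, which responds to PDGF-A and PDGF-C chains among others, had its lowest level in PTGS2-KO cells. The samples held 8.06, 7.82 and 8.37 RPKM in scramble, 10.38, 11.05 and 9.86 RPKM in PTGS1-KO, 4.30, 3.64 and 3.36 RPKM in PTGS2-KO, and 5.83, 5.24 and 5.00 RPKM in PTGES-KO cells. None of the 4 groups overlapped another. The level fell in PTGS2-KO cells to 46.6% of scramble (log2 fold change -0.93, 95% interval -1.15 to -0.71, limma adjusted p = 6.6e-05). It fell less in PTGES-KO cells, to 66.3% (log2 fold change -0.52, 95% interval -0.74 to -0.3, limma adjusted p = 0.0027), and the direct comparison put PTGES-KO above PTGS2-KO cells by 0.42 on the log2 scale (95% interval 0.2 to 0.64, limma adjusted p = 0.0133). Without PTGS2-KO replicate 2 this last difference was 0.4 with an adjusted p of 0.0504. In PTGS1-KO cells the mean was 129% of scramble with no overlap, and the log2 fold change of 0.33 (95% interval 0.11 to 0.55) did not pass the test (limma adjusted p = 0.0614).

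*Pdgfrb*, the main receptor for PDGF-B, lies on chromosome 18 from 61045150 to 61085061 (GRCm38, plus strand) and spread more between replicates. It measured 11.14, 9.17 and 15.08 RPKM in scramble cells, 23.75, 16.40 and 13.09 RPKM in PTGS1-KO cells, 6.54, 7.02 and 5.94 RPKM in PTGS2-KO cells, and 7.10, 4.59 and 4.53 RPKM in PTGES-KO cells. Samples of PTGS2-KO and PTGES-KO cells were all below those of scramble and PTGS1-KO cells and overlapped each other. The fall was to 45.8% of scramble in PTGES-KO cells (log2 fold change -1, 95% interval -1.46 to -0.53, limma adjusted p = 0.0045) and to 55.1% in PTGS2-KO cells (log2 fold change -0.75, 95% interval -1.21 to -0.29, limma adjusted p = 0.0399). The call in PTGS2-KO cells was lost without any of 7 samples, scramble replicate 1 (adjusted p = 0.0911) or 3 (0.144), PTGS1-KO replicate 2 (0.0518), PTGS2-KO replicate 1 (0.0899), 2 (0.0676) or 3 (0.115), or PTGES-KO replicate 2 (0.0505). PTGS1-KO cells overlapped scramble cells, and their log2 fold change of 0.54 (95% interval 0.08 to 1) did not pass (limma adjusted p = 0.147). PTGES-KO and PTGS2-KO cells, neighbours in the order, had a difference of -0.25 on the log2 scale (95% interval -0.71 to 0.21, limma adjusted p = 0.468).

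The fibroblast marker list moved in sum, but not in each gene, in the same direction as *Fgfr1* and *Pdgfrb* in PTGS1-KO and PTGES-KO cells. Its 6 genes summed to 0.42 to 0.54 RPKM in scramble, 1.02 to 1.49 in PTGS1-KO, 0.49 to 0.68 in PTGS2-KO and 0.05 to 0.18 in PTGES-KO cells. These sums came mainly from *Col1a1*, at 0.31 RPKM in scramble, 0.98 in PTGS1-KO and 0.0767 in PTGES-KO cells, and *Col1a2* (0.143, 0.247 and 0.0267). *Fap* went the other way in PTGS1-KO cells, from 0.04 to 0.02 RPKM. None of the 6 reached a mean of 1 RPKM in any group, and *Dcn* and *Lum* were listed at 0 in all 12 samples. The mural cell list, which *Pdgfrb* would mark in tissue, summed to at most 0.26 RPKM in any sample, the endothelial list to at most 0.65 and the keratinocyte list to at most 0.01. The immune list summed to 0.67 to 2.08 RPKM, with 1 of its 6 genes at a mean over 1. The part of other cells in these results was not tested, and in bulk RNA fewer cells of a type and less RNA per cell cannot be told apart.

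*Met*, the HGF receptor, changed by smaller steps at a far higher level. Its values were 113.69, 124.21 and 123.97 RPKM in scramble, 170.79, 160.24 and 137.70 RPKM in PTGS1-KO, 119.70, 107.52 and 92.71 RPKM in PTGS2-KO, and 108.59, 85.76 and 85.31 RPKM in PTGES-KO cells. PTGS1-KO samples were all above and PTGES-KO samples all below the scramble samples, and PTGS2-KO samples overlapped scramble and PTGES-KO samples. The mean fell from 121 ± 6.01 to 93.2 ± 13.3 RPKM (SD, n = 3) in PTGES-KO cells, which is -0.38 on the log2 scale (95% interval -0.63 to -0.12, limma adjusted p = 0.0307). This call was lost without scramble replicate 2 (adjusted p = 0.0898) or 3 (0.0906) and without PTGES-KO replicate 2 (0.116) or 3 (0.109). The PTGS1-KO mean of 156 ± 16.9 RPKM (SD, n = 3) gave a log2 fold change of 0.37 (95% interval 0.11 to 0.62) that did not pass (limma adjusted p = 0.07), and the PTGS2-KO value was -0.18 (95% interval -0.43 to 0.07, limma adjusted p = 0.34).

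*Igf1r*, the type 1 receptor for insulin-like growth factors, had the highest mean of the 8 genes. It measured 118.25, 137.27 and 141.94 RPKM in scramble cells, 165.47, 153.87 and 132.68 RPKM in PTGS1-KO cells, 139.35, 121.32 and 101.61 RPKM in PTGS2-KO cells, and 128.65, 91.85 and 92.48 RPKM in PTGES-KO cells. Each knockout overlapped scramble cells. None of the 3 knockouts passed limma's test against scramble, with log2 fold changes of 0.18 (95% interval -0.13 to 0.49, adjusted p = 0.493), -0.14 (-0.45 to 0.17, 0.568) and -0.36 (-0.67 to -0.04, 0.0865) in the knockouts of *Ptgs1*, *Ptgs2* and *Ptges*. Without PTGES-KO replicate 1, the highest of its group, the last value was -0.51 with an adjusted p of 0.0129. PTGES-KO samples were all below PTGS1-KO samples, at a log2 fold change of -0.54 (95% interval -0.85 to -0.23, limma adjusted p = 0.0133). That call was lost without PTGS1-KO replicate 1 (adjusted p = 0.0559) and without PTGES-KO replicate 2 (0.062) or 3 (0.0583).

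*Insr*, the insulin receptor, passed none of the 6 comparisons by limma, with 2 of them at an unadjusted p under 0.05. The samples held 40.49, 51.68 and 50.03 RPKM in scramble, 49.39, 54.35 and 42.03 RPKM in PTGS1-KO, 42.80, 35.35 and 29.49 RPKM in PTGS2-KO, and 51.82, 31.04 and 32.51 RPKM in PTGES-KO cells. All 4 groups overlapped each other. The log2 fold changes against scramble were 0.04 (95% interval -0.36 to 0.43, limma adjusted p = 0.933), -0.4 (-0.8 to 0, 0.184) and -0.33 (-0.72 to 0.07, 0.217) in the knockouts of *Ptgs1*, *Ptgs2* and *Ptges*. PTGES-KO replicate 1 lay with the scramble samples and far above the other two of its line, and without it the PTGES-KO value was -0.55 with an adjusted p of 0.0191.

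The ligands were listed near 0. *Hgf*, which codes for the only known ligand of MET, was listed at 0.09, 0 and 0.07 RPKM in scramble, 0, 0 and 0.07 RPKM in PTGS1-KO, 0.03, 0.09 and 0.11 RPKM in PTGS2-KO, and 0.17, 0.06 and 0.22 RPKM in PTGES-KO cells. If the authors used a transcript length near the longest in GENCODE M21 (3.47 kb), 1 read was worth 0.017 to 0.022 RPKM and the highest value about 12.8 reads. The 2 highest values were in PTGES-KO cells, whose remaining sample lay within the range of scramble cells, and the exact permutation test over the 4 groups gave p = 0.12. *Fgf2*, a ligand of FGFR1, was listed at 0 in 8 of the 12 samples, including the 3 scramble samples. Its other values were 0.11 and 0.10 RPKM in PTGS1-KO, 0.28 RPKM in PTGS2-KO and 0.13 RPKM in PTGES-KO cells, with an exact permutation p of 0.84 over the 4 groups. Taking its longest coding transcript (5.97 kb), these 4 values would equal 8.6 to 26.6 reads, beside 0 in the other samples, with none between, and the length the authors used is not given in the sources used here. No difference between lines was detected for either ligand.

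**Figure D2:**
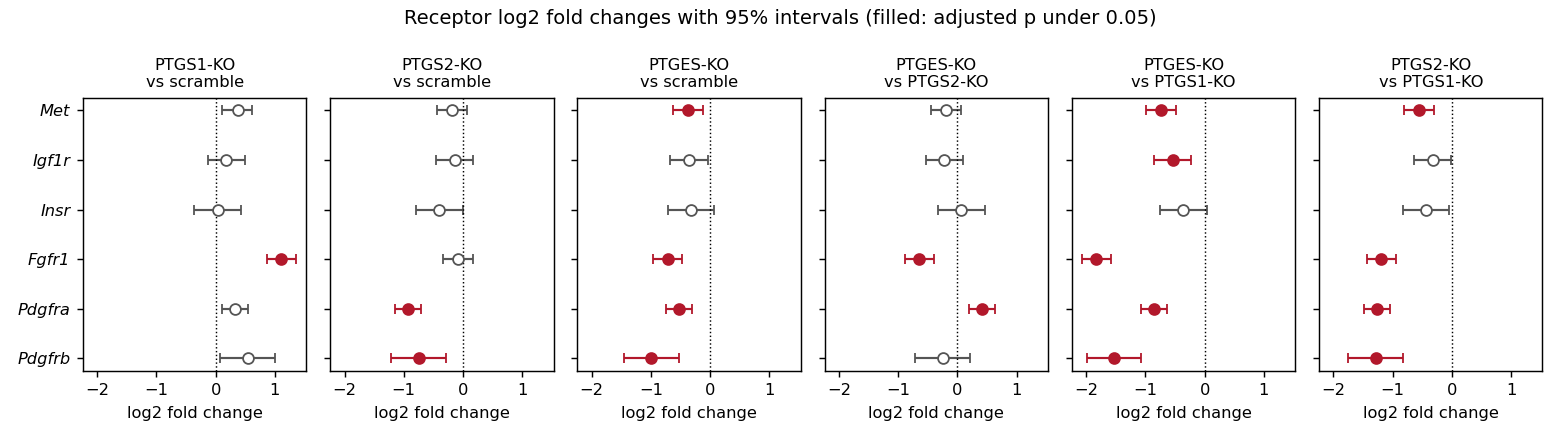
log2 fold changes on the log2(RPKM + 1) scale for the 6 receptors in 6 comparisons, with 95% intervals from limma. Filled points passed an adjusted p under 0.05 and open points did not, and all 5 filled points in the PTGES-KO against PTGS1-KO panel lay below 0.

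Counted together against scramble, 1 of the 6 receptors passed in PTGS1-KO cells, *Fgfr1*, which rose, where 9.26% of all genes tested passed (4.65% higher and 4.61% lower). The groups did not overlap for 3 of the 6, where this held for 26.9% of all genes, and the median log2 fold change was 0.35 for the receptors and 0.01 for all genes. In PTGS2-KO cells 2 receptors passed, *Pdgfra* and *Pdgfrb*, and both fell, where 11.1% of all genes passed (5.97% higher and 5.17% lower), and 2 did not overlap against 35.1% of all genes. The median there was -0.29 for the receptors and 0.01 for all genes. In PTGES-KO cells 4 receptors passed, *Met*, *Fgfr1*, *Pdgfra* and *Pdgfrb*, and all 4 fell, where 26.3% of all genes passed (11.9% higher and 14.4% lower). The same 4 did not overlap scramble cells, against 43.3% of all genes, and the median was -0.45 for the receptors and -0.03 for all genes. These 3 comparisons share the 3 scramble samples, so their directions are not independent of each other.

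The knockout lines were then compared with each other. PTGES-KO cells were lower than PTGS1-KO cells for 5 of the 6 receptors, all except *Insr*, where 30.2% of all genes passed (13.2% higher and 17.0% lower), and these 5 did not overlap, against 40.3% of all genes. The log2 fold change was -1.83 for *Fgfr1* (limma adjusted p = 9.08e-08), -1.53 for *Pdgfrb* (0.000148), -0.85 for *Pdgfra* (4.2e-05), -0.74 for *Met* (0.00039) and -0.54 for *Igf1r* (0.0133). PTGS2-KO cells were lower than PTGS1-KO cells for 4 receptors, where 23.6% of all genes passed (12.1% higher and 11.6% lower), by log2 fold changes of -1.28 for *Pdgfrb* (limma adjusted p = 0.000721), -1.27 for *Pdgfra* (1.41e-06), -1.19 for *Fgfr1* (7.39e-06) and -0.55 for *Met* (0.00406). The same 4 did not overlap between these lines, against 35.2% of all genes.

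PTGES-KO and PTGS2-KO cells, the lines targeted at mPGES-1 and at COX-2, differed in 2 of the 6 receptors, where 16.6% of all genes passed (6.76% higher and 9.84% lower in PTGES-KO cells), and in opposite directions. *Fgfr1* was lower in PTGES-KO cells, by -0.64 on the log2 scale (95% interval -0.88 to -0.39, limma adjusted p = 0.00207), and *Pdgfra* was higher, by the 0.42 given above. Both did not overlap, against 34.0% of all genes. For *Met* the difference was -0.19 (95% interval -0.45 to 0.06), for *Igf1r* -0.22 (-0.53 to 0.1) and for *Insr* 0.07 (-0.32 to 0.47). Same-numbered samples of these lines correlated in their deviations from the group means (r = 0.566, 0.112 and 0.254 across genes). So did PTGS2-KO replicate 2 with PTGES-KO replicate 3 (0.321) and PTGS2-KO replicate 3 with PTGES-KO replicate 2 (0.219). The remaining other-numbered pairs of these lines had negative correlations. A limma model of these 6 samples took the replicate number as a block, chosen from these correlations after the data were seen. In it 4 receptors passed, *Met* (-0.19, adjusted p = 0.0394) and *Igf1r* (-0.22, 0.0495) in addition. Of the 11282 genes tested 3827 passed, instead of 1873. As the block was picked from these same data, the added calls are not separate support. With the block in all 12 samples 2 receptors passed, as without it.

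**Figure D3:**
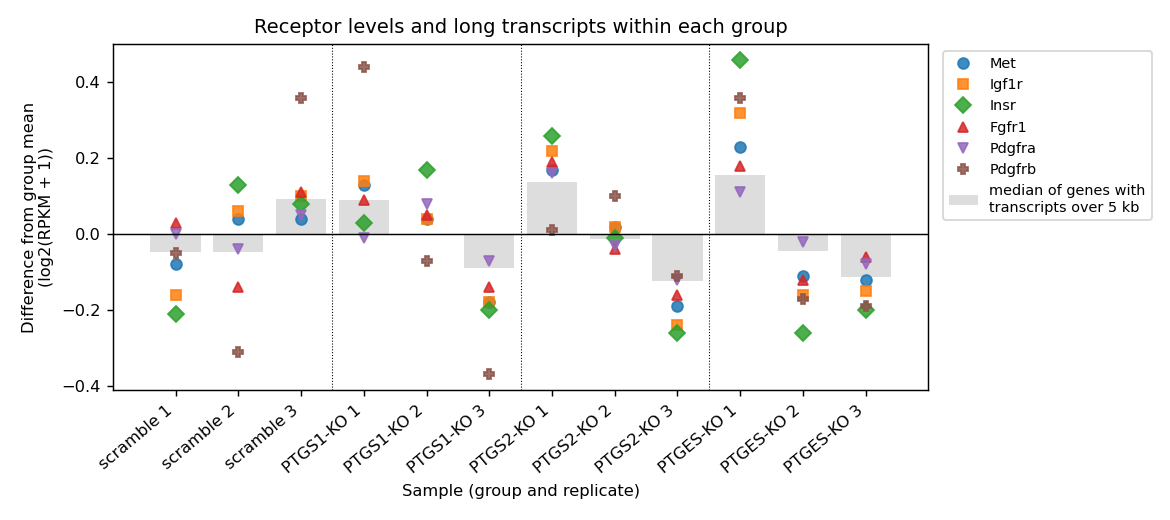
Difference of each receptor from the mean of its own group on the log2(RPKM + 1) scale in the 12 samples, with grey bars for the median of the 2269 genes tested whose longest coding transcript exceeds 5 kb. In PTGES-KO cells all 6 receptors were highest in replicate 1 (*Insr* by 0.46, *Pdgfra* by 0.11), where the grey bar stood at 0.16.

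Within a group the receptors often moved together. In PTGES-KO cells all 6 were highest in replicate 1, by 0.11 (*Pdgfra*) to 0.46 (*Insr*) over the group mean on the log2 scale. In PTGS2-KO and PTGS1-KO cells all 6 were lowest in replicate 3. The 6 receptors have long transcripts, from 5.04 kb (*Fgfr1*) to 11.41 kb (*Igf1r*) for the longest coding one, and genes over 5 kb shifted alike, with a median difference from the group of 0.16 in PTGES-KO replicate 1, and of -0.09 in PTGS1-KO, -0.12 in PTGS2-KO and -0.11 in PTGES-KO replicate 3. Between groups these long genes stood lowest in PTGES-KO cells, as *Met*, *Igf1r*, *Fgfr1* and *Pdgfrb* did, and their part in the group differences was tested only by the alternative that follows. Their medians, against the mean of all samples, were -0.05, -0.05 and 0.09 in scramble, 0.15, 0.06 and -0.03 in PTGS1-KO, 0.19, 0.04 and -0.07 in PTGS2-KO, and 0.06, -0.14 and -0.21 in PTGES-KO samples. When trends with transcript length and GC content were removed from each sample, an alternative added after the data were seen, *Met* passed in all 3 knockouts, with log2 fold changes of 0.32 in PTGS1-KO (limma adjusted p = 0.00265) and -0.28 in PTGS2-KO cells (0.00596). *Pdgfra* then passed in PTGS1-KO cells (0.28, adjusted p = 0.0135), *Insr* in PTGS2-KO cells (-0.48, 0.0149) and *Igf1r* in PTGES-KO cells (-0.23, 0.0238). Several differences became smaller, among them *Igf1r* in PTGES-KO against PTGS1-KO cells, from -0.54 to -0.34 (0.00211), *Igf1r* in PTGES-KO against scramble cells, from -0.36 to the -0.23 above, and *Fgfr1* in PTGES-KO against scramble cells, from -0.71 to -0.57 (3.79e-05).

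The levels of *Met* and *Igf1r* followed each other closely. Centred on its own mean, *Igf1r* differed from *Met* by a root mean square of 0.1 on the log2 scale over the 12 samples, and 33 tested genes were nearer to *Met*. *Insr* differed from *Igf1r* by 0.14, with 369 tested genes nearer to *Igf1r*. The PDGF receptors lay 0.36 from each other, with 591 genes nearer to *Pdgfra*. *Pdgfrb* was 0.32 from *Fgfr1*, with 37 genes nearer to *Pdgfrb*. This distance tends to be larger for genes that move more, so the distances of different pairs are not on a par. Across all genes tested, the nearest to *Fgfr1* were *Prune2* (0.1), 9930013L23Rik (0.14) and *Spn* (0.16). The nearest to *Pdgfra* were *Ltbp4* (0.1), *Pcdhb17* (0.14) and the receptor kinase *Ror1* (0.15), and the nearest to *Pdgfrb* were *Il16* (0.21), the VEGF receptor *Flt1* (0.22) and *Ly75* (0.22). In scramble cells and the knockouts of *Ptgs1*, *Ptgs2* and *Ptges*, in this order, *Prune2* means were 16.8, 38, 15.6 and 8.69 RPKM and *Ltbp4* means 246, 308, 134 and 173 RPKM.

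Of 45 other receptor tyrosine kinases outside the EGF family, 16 were tested and 29 had a mean under 1 RPKM. Against scramble, 4 rose and 1 fell in PTGS1-KO cells (median log2 fold change 0.13), 1 rose and 4 fell in PTGS2-KO cells (median -0.24), and 6 fell in PTGES-KO cells (median -0.3), beside medians of 0.01, 0.01 and -0.03 over all genes tested, of which 9.26%, 11.1% and 26.3% passed. The falls numbered 6 in PTGS2-KO and 8 in PTGES-KO cells by median-ratio scaling, 4 and 8 by quantile normalization, and 7 and 9 with length and GC trends removed. More of all genes also passed in these settings. The largest rise in PTGS1-KO cells was that of *Ephb4*, an ephrin receptor, from 25.5 to 44.6 RPKM (log2 fold change 0.77, limma adjusted p = 0.00671), and *Epha2*, the ephrin receptor at 615 RPKM in scramble cells, fell to 445 RPKM (-0.47, 0.0121). In PTGS2-KO cells *Ptk7*, a Wnt pathway pseudokinase, rose from 4.85 to 14.5 RPKM (1.4, 5.18e-06), and *Flt1* fell from 24.2 to 12.8 RPKM (-0.87, 0.00157). *Ror2*, a Wnt5a receptor, fell most in PTGES-KO cells, from 9.29 to 2.43 RPKM (-1.58, 5.33e-07). Between the knockouts, 10 of the 16 were lower in PTGES-KO than in PTGS1-KO cells, where 30.2% of all genes passed (13.2% higher and 17.0% lower). In PTGS2-KO against PTGS1-KO cells 9 were lower and 1 higher, where 23.6% of all genes passed (12.1% higher and 11.6% lower).

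**Figure D4:**
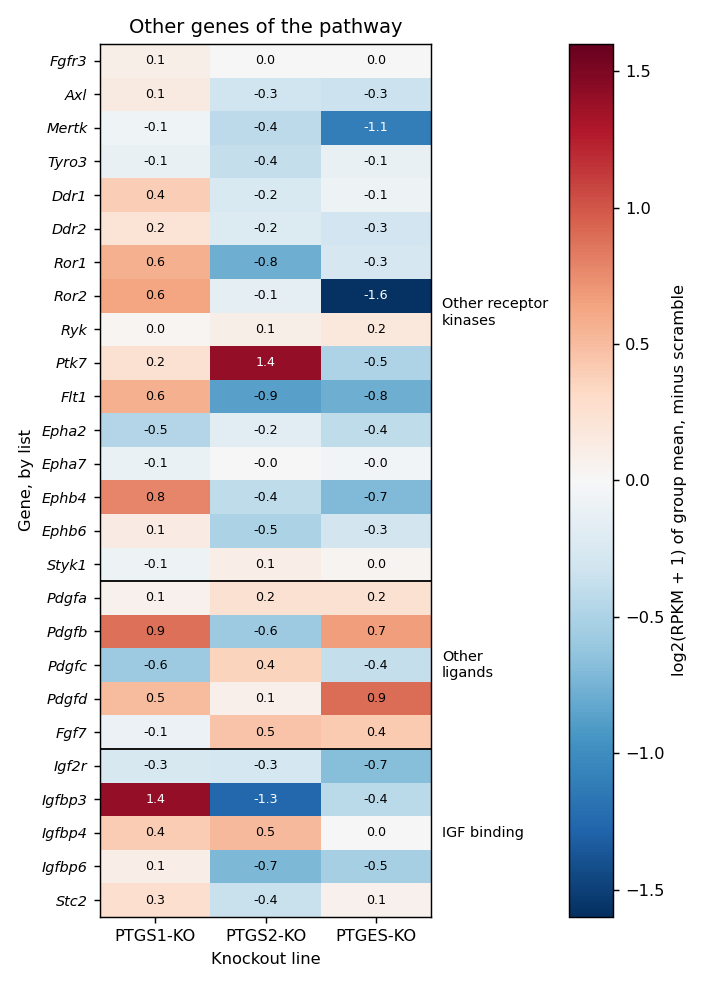
Heat map of log2 fold changes against scramble (difference on the log2(RPKM + 1) scale, red higher, blue lower) in the 3 knockout lines for tested genes of 3 lists, other receptor kinases, other ligands and IGF binding. *Igfbp3* was higher in PTGS1-KO (1.4) and lower in PTGS2-KO cells (-1.26), and *Ror2* was lowest in PTGES-KO cells (-1.58).

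Among 26 other ligands of these receptor families, 5 reached a mean of 1 RPKM, 4 chains of platelet-derived growth factor and *Fgf7*, a ligand of the FGFR2 splice form of epithelial cells. *Pdgfb*, the chain that binds PDGFRB, was 0.793 RPKM in scramble, rose to 2.29 RPKM in PTGS1-KO cells (log2 fold change 0.88, limma adjusted p = 0.00103) and fell to 0.203 RPKM in PTGS2-KO cells (-0.57, 0.0172). It passed the limit of 1 RPKM only through PTGS1-KO and PTGES-KO cells (1.84 RPKM). Its fall in PTGS2-KO cells compares 2 groups with means below that limit. *Pdgfc*, whose product binds PDGFRA, fell from 55.9 to 36.9 RPKM in PTGS1-KO cells (-0.59, 0.00137) and to 42.6 RPKM in PTGES-KO cells (-0.39, 0.00882). *Pdgfd*, another PDGFRB ligand, rose from 3.55 to 7.42 RPKM in PTGES-KO cells (0.88, 0.000206), and *Fgf7* from 21.8 to 30.2 RPKM in PTGS2-KO cells (0.45, 0.00404). Counts of rises and falls over the 5 were 2 and 1 in PTGS1-KO, 2 and 1 in PTGS2-KO, and 3 and 1 in PTGES-KO cells (4 and 1 by either other scaling). Of all genes tested 9.26%, 11.1% and 26.3% passed in these comparisons.

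Of 10 genes that activate HGF or inhibit its activation, 2 were tested, the plasminogen activators *Plau* (urokinase) and *Plat*. *Plau* fell from 3.79 to 0.383 RPKM in PTGS1-KO cells (log2 fold change -1.79, limma adjusted p = 1.01e-06) and rose to 5.58 RPKM in PTGES-KO cells (0.46, 0.0209). *Plat* fell from 51.8 to 31.4 RPKM in PTGS2-KO cells (-0.71, 0.00137) and to 20.5 RPKM in PTGES-KO cells (-1.3, 3.67e-06). Beside these values, *Hgf* was at most 0.22 RPKM in every sample.

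Genes that bind insulin-like growth factors or set their availability were tested for 5 of 13. Of these, 3 rose in PTGS1-KO cells (median log2 fold change 0.28), 1 rose and 3 fell in PTGS2-KO cells (median -0.36), and 3 fell in PTGES-KO cells (median -0.42). Over all genes tested 9.26%, 11.1% and 26.3% passed in these comparisons, with medians of 0.01, 0.01 and -0.03. *Igfbp3*, the main carrier of circulating insulin-like growth factors, rose from 171 to 455 RPKM in PTGS1-KO cells (1.4, limma adjusted p = 4.97e-07) and fell to 70.9 RPKM in PTGS2-KO cells (-1.26, 1.89e-06). *Igfbp4*, another carrier, rose from 102 to 147 RPKM in PTGS2-KO cells (0.52, 0.00442). *Igf2r*, which clears IGF2 from the cell surface, fell from 153 to 95.3 RPKM in PTGES-KO cells (-0.69, 0.00337). These changes stood beside *Igf1r* values that did not pass the test against scramble in any knockout.

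Of 18 FGF co-receptors and carriers, 12 were tested. In PTGS1-KO cells 2 rose and 3 fell, in PTGS2-KO cells 2 fell, and in PTGES-KO cells 1 rose and 3 fell, with median log2 fold changes of 0.15, -0.01 (0.01 by quantile normalization) and -0.14. Of all genes tested 9.26%, 11.1% and 26.3% passed in these comparisons, with medians of 0.01, 0.01 and -0.03. *Gpc4*, a heparan sulfate proteoglycan of the cell surface, rose from 18.4 to 33.5 RPKM in PTGS1-KO cells (0.83, limma adjusted p = 0.00137) and fell to 7.03 RPKM in PTGES-KO cells (-1.3, 1.97e-05), the same directions as *Fgfr1*. *Fgfbp1*, a secreted FGF carrier, fell from 2.95 to 0.483 RPKM in PTGS1-KO cells (-1.42, 9.86e-05). The syndecan *Sdc3* fell from 14.8 to 9.67 RPKM in PTGS2-KO cells (-0.58, 0.0118), and *Sdc2* rose from 81.9 to 127 RPKM in PTGES-KO cells (0.63, 0.000722).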

How the data were processed

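The 12 samples, 3 of scramble cells and 3 per knockout line, were sequenced from both fragment ends (101 bp). The authors deposited RPKM values to 2 decimals, and build mm10 is named in the submitters' processing notes. The aligner, counter and annotation are not given in the sources used here, and the labels name 2 library kits. The depth was estimated from the steps between low values of genes with short transcripts, assuming GENCODE M21 lengths. Since counts were not recovered for all genes, no counting intervals are given.

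Genes averaging 1 RPKM or more were tested on log2(RPKM + 1) with limma 3.58.1 in R 4.3.3 (lmFit, then eBayes with a trend of variance on mean), using all samples together, two-sided, with Benjamini-Hochberg adjustment over the 11282 genes and a threshold of 0.05. Fold changes of low genes are understated on this scale. Genes below the limit were compared by exact permutation of their F statistic (15400 divisions into 4 groups of 3). Figures were drawn with matplotlib 3.10.9 in Python 3.11.15. The steps were tested on simulated data.

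The members and lists were chosen with earlier results of these data known. Named genes were all members, for members with group means apart by at least 1 on the log2 scale the 3 nearest genes, and for each list and knockout the gene with the largest rise and fall that passed. Exceptions are the target genes and the cell type markers. Alternatives were another pseudocount (0.1), no filter, a filter at 10 RPKM, median-ratio and quantile scaling, the replicate block, only the 2 groups compared, no trend, the Tukey test on untransformed values with Benjamini-Hochberg adjustment over genes, each sample left out, and, added after the data were seen, removal of length and GC trends by loess (span 0.3), also with the block, the Tukey test without adjustment over genes, as the study used it, and the 2 groups compared with the block. Replicate numbers were taken to pair the samples of PTGS2-KO and PTGES-KO cells, whose same-numbered correlations were all over 0.1, and those of no other comparison. Other-numbered correlations of these lines reached 0.321, so this pairing is uncertain.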

Additional observations from a re-analysis of the deposited data

Results flagged for a closer look

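Each result here is a receptor whose difference from scramble differed between 2 knockout lines, as tested by the direct comparison of those lines with limma. *Fgfr1* differed in all 3 such comparisons, by -1.83 for PTGES-KO against PTGS1-KO cells, -1.19 for PTGS2-KO against PTGS1-KO cells and -0.64 for PTGES-KO against PTGS2-KO cells, in log2 fold change. *Pdgfra* also differed in all 3, by -0.85, -1.27 and 0.42 in the same order. *Pdgfrb* differed by -1.53 between PTGES-KO and PTGS1-KO cells and by -1.28 between PTGS2-KO and PTGS1-KO cells. *Met* differed by -0.74 and -0.55 in those comparisons, and *Igf1r* by -0.54 between PTGES-KO and PTGS1-KO cells. Scramble samples do not enter these differences except through the shared estimate of the spread. The fibroblast marker sums given above, which came mainly from *Col1a1* and *Col1a2*, also lay highest in PTGS1-KO and lowest in PTGES-KO cells. Their part was not tested.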

How the results depend on the processing

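The rise of *Fgfr1* in PTGS1-KO cells passed under all 25 alternatives (log2 fold change 1.05 to 1.18), and the falls of *Pdgfra* in PTGS2-KO (-1.09 to -0.87) and PTGES-KO cells (-0.59 to -0.41) under all 24 that could test it, since *Pdgfra* is below the 10 RPKM filter. The number of receptors that passed in PTGS1-KO cells was 1, against 3 by median-ratio scaling, 3 by quantile normalization, 2 with only the 2 groups compared, 2 without the mean-variance trend, 2 by the Tukey test adjusted over genes and 3 by it unadjusted, 3 with length and GC trends removed, and 1 to 2 with each sample left out (2 without PTGS1-KO replicate 3, PTGS2-KO replicate 1 or PTGES-KO replicate 1). Over all genes more also passed by both scalings and with the trends removed. In PTGS2-KO cells it was 2, against 1 without the filter, 1 at the 10 RPKM filter, 1 by the Tukey test, adjusted over genes or not, 4 with the trends removed, and 1 to 2 with each sample left out. In PTGES-KO cells it was 4, against 1 by the Tukey test adjusted over genes and 2 by it unadjusted. It was 3 to 6 otherwise (6 without PTGES-KO replicate 1). For PTGES-KO against PTGS2-KO cells it was 2, against 1 at the 10 RPKM filter, 0 by the Tukey test adjusted over genes (2 by it unadjusted, and 2 by limma at an unadjusted p under 0.05), and 1 to 2 with each sample left out, the 1 being without PTGS2-KO replicate 2. For PTGS2-KO against PTGS1-KO cells it was 4, against 2 by the Tukey test adjusted over genes and 3 to 6 otherwise. For PTGES-KO against PTGS1-KO cells it was 5, and 4 to 6 under the alternatives. The fall of *Met* in PTGES-KO cells had an adjusted p of 0.0595 without the filter, and a p of 0.388 by the Tukey test adjusted over genes and 0.122 by it unadjusted. The fall of *Pdgfrb* in PTGES-KO cells had a p of 0.438 and 0.147 in the same tests. Except for the construction of the filters, the causes were not tested.

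Sign changes were limited to values near 0, with *Insr* in PTGS1-KO cells at -0.07 without scramble replicate 1, -0.05 without PTGS1-KO replicate 2 and -0.02 with the trends removed, with or without the block, *Insr* in PTGES-KO against PTGS2-KO cells at -0.05 without PTGS2-KO replicate 3 and -0.15 without PTGES-KO replicate 1, and *Fgfr1* in PTGS2-KO cells at 0 without PTGS2-KO replicate 3. With each sample left out these 3 values ranged from -0.07 to 0.13, from -0.15 to 0.21 and from -0.17 to 0.

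Same-numbered samples of different lines correlated in their deviations at r = -0.341 to 0.566, over 0.1 in 5 of 18 pairs. The 3 pairs of PTGS2-KO with PTGES-KO samples were among these 5, so the numbers were taken to pair the samples in that comparison and in no other. This pairing is uncertain, as PTGS2-KO replicate 2 correlated more with PTGES-KO replicate 3 (0.321) than with replicate 2 (0.112). Over all lines the mean r was 0.0123 for same-numbered and -0.00454 for other pairs. For PTGES-KO against PTGS2-KO cells 2 receptors passed with the replicate block in all 12 samples, as without. With the block in the 6 samples of these lines 4 receptors passed. With the block in the 6 samples compared, 3 passed in PTGS1-KO, 1 in PTGS2-KO and 3 in PTGES-KO against scramble cells, the count of all genes being 303 in PTGS2-KO and 1617 in PTGES-KO cells. With the replicate block in all samples 2 receptors instead of 1 passed in PTGS1-KO cells, *Met* being added (0.37, adjusted p = 0.0383), and with the block and the trends removed 3 passed in PTGS1-KO and 4 in PTGS2-KO cells.

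Over all genes, the counts that passed were 1045 (PTGS1-KO), 1257 (PTGS2-KO) and 2969 (PTGES-KO) against scramble, 1873 for PTGES-KO against PTGS2-KO, 3409 for PTGES-KO against PTGS1-KO and 2665 for PTGS2-KO against PTGS1-KO. By the Tukey test adjusted over genes they were 361, 420, 1151, 639, 1590 and 1300. For PTGS1-KO against scramble the count was 582 at the 10 RPKM filter and 1582 by quantile normalization. Median-ratio scaling gave 758 higher and 762 lower there, and 1927 for PTGS2-KO. With the trends removed the counts were 2187, 2582, 2957 and 4071 for PTGS1-KO and PTGS2-KO against scramble, PTGES-KO against PTGS2-KO and PTGS2-KO against PTGS1-KO, and 2099, 2513, 2899 and 4046 with the block added. Leaving out 1 sample took the counts against scramble as low as 645 and 722 (both without scramble replicate 1) and 1936 (without PTGES-KO replicate 2), and that of PTGES-KO against PTGS2-KO as low as 1104 (without PTGES-KO replicate 2).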

Other observations

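Of 26 adaptors and effectors of receptor signaling, 24 were tested. In PTGS1-KO cells 5 rose and 1 fell, where 9.26% of all genes passed. In PTGES-KO cells 1 rose and 3 fell, where 26.3% of all genes passed, but 3 rose and 3 fell by median-ratio or quantile scaling and 6 rose and 3 fell with length and GC trends removed. In PTGS2-KO cells, where 11.1% of all genes passed, limma called 0 of the 24, with 6 at an unadjusted p under 0.05. There 3 were called after median-ratio scaling, 2 after quantile normalization and 5 with length and GC trends removed. In these settings more of all genes passed as well. *Shc2*, an adaptor of the SHC family, rose from 3.37 to 8.53 RPKM in PTGS1-KO cells (log2 fold change 1.12, limma adjusted p = 1.26e-05) and fell to 0.427 RPKM in PTGES-KO cells (-1.62, 3.23e-07). *Pik3r3*, a regulatory subunit of PI3K, fell from 2.16 to 1.07 RPKM in PTGS1-KO cells (-0.61, 0.00393), and *Pik3ca*, its catalytic partner, rose from 37.7 to 46 RPKM in PTGES-KO cells (0.28, 0.0498).

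Of 20 negative regulators 18 were tested. In PTGS1-KO cells 3 rose and 3 fell (median log2 fold change 0.05, where 9.26% of all genes passed), and in PTGS2-KO cells 3 fell (median -0.07, where 11.1% passed). In PTGES-KO cells 2 rose and 8 fell (median -0.24, against -0.03 for all genes, of which 26.3% passed). In PTGS2-KO cells 5 fell by median-ratio or quantile scaling, and 2 rose and 6 fell with length and GC trends removed. In PTGES-KO cells the counts were 2 and 8 by both scalings and 3 and 9 with the trends removed. Over all genes more also passed in these settings. *Spred1*, an inhibitor of RAS-MAPK signaling, rose from 129 to 185 RPKM in PTGS1-KO cells (0.52, limma adjusted p = 0.0113), and its relative *Spred3* fell from 31.1 to 16.3 RPKM in PTGES-KO cells (-0.89, 3.42e-05). *Grb14*, an inhibitor of the insulin receptor, fell from 2.49 to 1.37 RPKM in PTGS1-KO cells (-0.54, 0.034) and rose to 4.61 RPKM in PTGES-KO cells (0.71, 0.00339). *Socs3*, an inhibitor of cytokine signaling, fell from 38.4 to 25 RPKM in PTGS2-KO cells (-0.6, 0.000666).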
